A study of Rattus norvegicus with 4 samples.

Results

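The comparison described here set the INS-1 array labelled Fsk 2h against the array labelled Con 2h, 2 of the 4 arrays in the series. INS-1 is an insulin-secreting line derived from a radiation-induced insulinoma of an inbred albino NEDH rat, grown in RPMI medium with 10% serum. The forskolin array held RNA from cells given 10 µM forskolin in DMSO for 2 h, and the vehicle array RNA from cells given DMSO alone for the same 2 h. The other 2 arrays held cells given 10 µM forskolin or DMSO alone for 16 h, and are used below only as a second time point and to show how far a pair of vehicle arrays differs. All 4 groups share the line, so the results describe 1 tumour-derived beta-cell line and not islets. Each group has 1 array, so no difference has a replicate check and none carries a p-value.

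Forskolin is a plant diterpene that switches on adenylyl cyclase, and the cAMP that follows activates protein kinase A and the exchange factor Epac. In beta cells this is the pathway through which incretin hormones strengthen glucose-stimulated insulin secretion. Protein kinase A also phosphorylates the transcription factor CREB, which binds the cAMP response element and starts a wave of early transcription. The known CREB targets and immediate-early transcription factors are set aside here, and the genes, families and pathways outside them are described.

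Values are log2 signals, and a difference is forskolin minus vehicle on that scale, so 1 unit is a 2-fold difference. Of 18645 named genes, 9323 were compared, kept because the mean of their 2 h signals was at or above 4.56, the middle value over all named genes. On the negative control probe sets the upper quartile was 4.57 on the forskolin array and 4.47 on the vehicle array, and signals at or below it are called near background. Among beta-cell markers, 13 of 14 measured lay above that level on both 2 h arrays, among them Ins1 (13.25 with forskolin, 13.23 with vehicle) and Iapp (11.25 with forskolin, 11.24 with vehicle). Gcg, the glucagon gene, was also well above it, at 12.004 with forskolin and 11.76 with vehicle. None of the markers of exocrine and duct cells (0 of 9 measured), fibroblasts and endothelium (0 of 7) or macrophages and leukocytes (0 of 8) was above it on both arrays. As a check of the treatment labels, Crem, a known cAMP-induced gene, had 9.41 with forskolin and 7.19 with vehicle, and Nr4a1, another, had 9.41 with forskolin and 6.80 with vehicle. Fos had 5.87 with forskolin and 3.18 with vehicle, near background.

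At 2 h, 182 of the 9323 compared genes (1.95%) were higher with forskolin by 2-fold or more and 117 (1.25%) lower by as much. In a bulk sample, a gene used by fewer cells and one with less RNA per cell cannot be told apart. The CREB and immediate-early lists hold 65 of the compared genes and account for 25 of the higher ones and 0 of the lower ones. This left 157 higher and 117 lower genes among 9258 outside those lists. Below 0 lay 5927 of the 9323 compared genes, and 5034 against the 16 h vehicle array, so counts of list members are to be read against these shares. Counts of list members past 2-fold are to be read against the 1.95% and 1.25%. Of the 157, 135 had both signals above background, 25 passed 4-fold and 6 of these passed 8-fold. Of the 117, 90 had both signals above background, 4 passed 4-fold and 1 of these passed 8-fold. The nearest genes on either side of the threshold differed by 1.001 and 0.997 among higher genes, and by -1.002 and -0.998 among lower ones. The lower side depended more on the scaling. The median difference over all compared genes was -0.10, and with a cyclic loess adjustment, which brings that median to 0.01, 66 of the 117 genes stayed at least 2-fold lower while all 182 higher ones stayed higher. Higher genes made up 60.9% of those past 2-fold as reported and 77.5% after that adjustment. Between the vehicle arrays of 16 h and 2 h, 3 of the 9323 genes (0.0322%) were 2-fold or more higher at 16 h and 3 (0.0322%) lower by as much, and the SD of the difference was 0.248, against 0.439 for forskolin minus vehicle at 2 h.

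**Figure D1:**
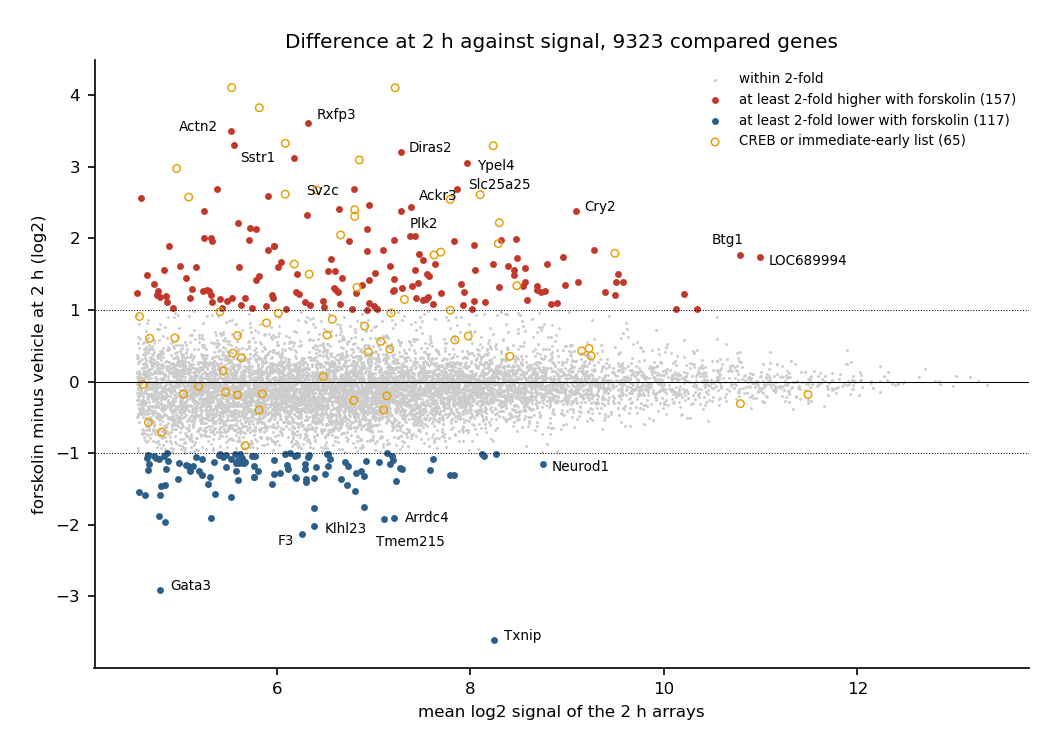
Forskolin minus vehicle log2 signal at 2 h (vertical) against the mean log2 signal of the 2 h arrays (horizontal) for the 9323 compared genes. Red and blue points are the 157 higher and 117 lower genes outside the CREB and immediate-early lists, orange rings the 65 genes of those lists, grey points the rest; Txnip and Gata3 lie alone at the bottom, and the higher genes reach to brighter signals than the lower ones.

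Among genes with a deposited symbol outside the known lists, the widest positive difference was that of Rxfp3, which encodes a Gi-coupled receptor for the neuropeptide relaxin-3. Its log2 signal was 8.13 with forskolin against 4.52 with vehicle, 12.2-fold higher. Sstr1, a somatostatin receptor gene, had 7.74 with forskolin against 4.62 with vehicle, 8.73-fold higher, so 2 inhibitory G protein-coupled receptors stood among the 3 widest differences with both signals above background. Diras2, a small GTPase of the Ras superfamily, came between them, at 8.88 with forskolin and 5.68 with vehicle (9.20-fold higher). Ackr3, an atypical chemokine receptor that binds CXCL12 and signals through arrestin, had 8.61 with forskolin and 6.16 with vehicle, 5.44-fold higher.

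Several of the next genes act in mitochondria, in vesicles or on the clock. Slc25a25, an ATP-magnesium/phosphate carrier of the inner mitochondrial membrane, had a signal of 9.21 with forskolin and 6.52 with vehicle, 6.48-fold higher. Sv2c, a glycoprotein of synaptic and secretory vesicles, had 8.14 with forskolin against 5.45 with vehicle, 6.45-fold higher, while its relative Sv2a was at 7.55 with forskolin and 7.46 with vehicle. Cry2, a repressor of the circadian clock, had 10.28 with forskolin and 7.90 with vehicle, 5.21-fold higher. The clock-linked nuclear receptor gene Nr1d1 lay the other way, at 4.48 with forskolin, near background, and 5.73 with vehicle. Cd83, a surface glycoprotein best known from dendritic cells, had 7.20 with forskolin against 4.61 with vehicle (6.02-fold higher). Tiparp, a mono-ADP-ribosyltransferase that restrains the aryl hydrocarbon receptor, had 7.84 with forskolin and 5.44 with vehicle (5.29-fold higher). Plat, tissue plasminogen activator, had 6.71 with forskolin and 4.49 with vehicle (4.66-fold higher), and the difference was 1.54 against the 16 h vehicle array. The rest of the 15 widest were Ypel4, Plk2, Lrrtm2, Fam148b (5.51-fold higher) and the zinc finger gene Giot1 (5.02-fold higher).

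In 22 of the higher genes outside the known lists the vehicle signal was near background, so their folds rest on a low denominator. The vehicle signals of Rxfp3 (4.52), Sstr1 (4.62), Cd83 (4.61) and Plat (4.49) lay little above that level, 4.47, so the same limit bears on their folds. The 5 of the 22 with the widest differences follow. Actn2, a sarcomeric alpha-actinin, had 7.27 with forskolin and 3.77 with vehicle. Ccnd1, cyclin D1, had 7.21 with forskolin and 3.90 with vehicle. Trib3, a stress-induced pseudokinase, had 6.73 with forskolin against 4.04 with vehicle, and Depdc7 had 5.87 with forskolin against 3.31 with vehicle. RGD1562220 had 6.44 with forskolin and 4.06 with vehicle. All 5 forskolin signals were above background.

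The widest negative difference belonged to Txnip, an alpha-arrestin that binds thioredoxin and curbs glucose uptake, at 6.44 with forskolin against 10.05 with vehicle, 12.2-fold lower. Its paralogue Arrdc4 had 6.26 with forskolin and 8.17 with vehicle, 3.74-fold lower. F3, tissue factor, the trigger of coagulation, had 5.20 with forskolin and 7.33 with vehicle, 4.38-fold lower. Plat and F3, which act in clot breakdown and clot formation, thus lay on opposite sides. Klhl23, a BTB-Kelch protein, had 5.37 with forskolin and 7.40 with vehicle, 4.06-fold lower. Tmem215, a transmembrane protein of the endoplasmic reticulum, had 6.15 with forskolin and 8.07 with vehicle, 3.78-fold lower, with a difference of -1.44 against the 16 h vehicle array. Grb7, an adaptor of receptor tyrosine kinases, had 5.50 with forskolin and 7.27 with vehicle, 3.41-fold lower. Atf7ip, a partner of the histone methyltransferase SETDB1, had 6.02 with forskolin and 7.78 with vehicle, 3.38-fold lower.

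Receptors were present on the lower side too. P2ry1, a purinergic receptor for ADP, had 6.04 with forskolin and 7.57 with vehicle, and Ffar3, a Gi-coupled receptor for short-chain fatty acids, was 2.72-fold lower, a difference of -1.44. Sstr3 had 5.33 with forskolin and 6.62 with vehicle, 2.44-fold lower, opposite to Sstr1 of the same family. Adora2b, a Gs-coupled adenosine receptor, had 4.37 with forskolin, near background, and 6.28 with vehicle. Among the beta-cell transcription factors, which do not belong to the known lists, Mafa was 2.48-fold higher (7.95 with forskolin, 6.64 with vehicle), while Neurod1 (8.18 with forskolin, 9.33 with vehicle) and Rfx6 (7.76 with forskolin, 8.77 with vehicle) were 2.23-fold and 2.02-fold lower. Against the 16 h vehicle array the differences of Neurod1 and Rfx6 were -0.82 and -0.88. Gata3 had 3.33 with forskolin, near background, against 6.25 with vehicle. Nkx6-1 and Gata4 were also near background with forskolin, at 3.84 and 4.30, against 5.43 and 5.66 with vehicle.

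The remaining genes of the 15 lowest were Senp7, Kctd2, Gcnt2, Lad1, Ypel5 and Amigo2, 2.63-fold to 3.06-fold lower. For 2 of them a second probe set gave a smaller difference, -0.47 for Senp7, where it was near background on both arrays, and -0.44 for Lad1. For Lad1 and Gcnt2 the vehicle array also mattered, since against the 16 h vehicle array their differences were -0.57 and -0.95 in place of -1.42 and -1.43.

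**Figure D2:**
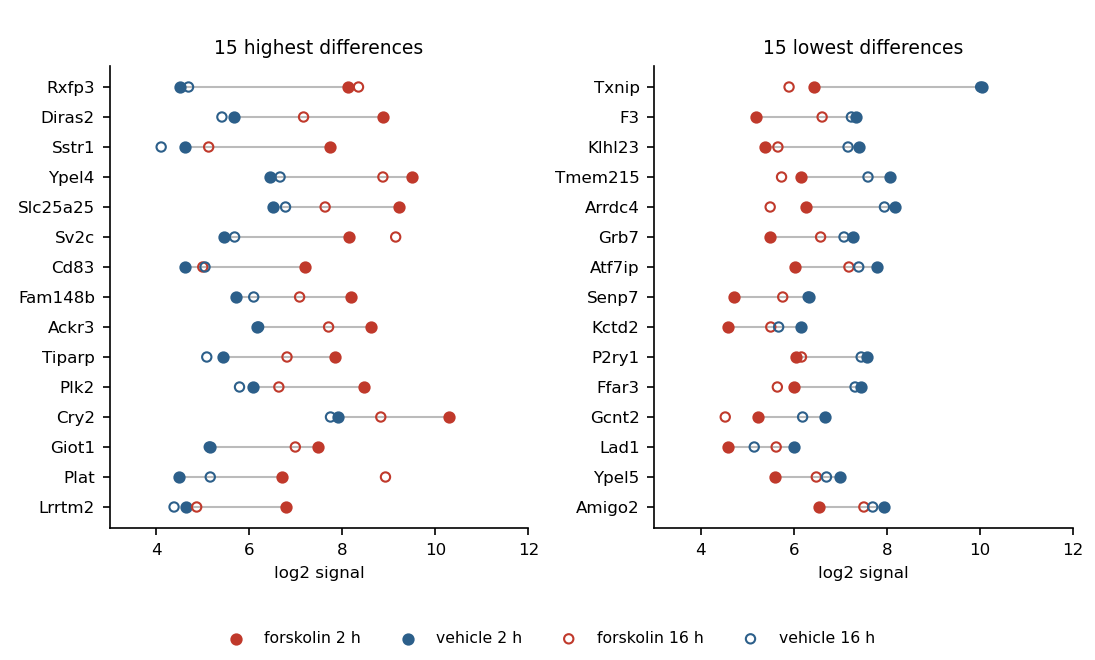
Log2 signals of the 15 genes with the highest (left) and the 15 with the lowest (right) difference at 2 h among those with both signals above background. Filled red points are forskolin at 2 h, filled blue points vehicle at 2 h and open rings the 16 h arrays. The vehicle points of both times lie close together for most genes. The forskolin point of 16 h has gone further than that of 2 h for several genes, among them Plat, Sv2c, Arrdc4, Gcnt2 and Txnip.

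Promoters were set beside these differences to show which of the highest genes outside the CREB list carry the letters of the cAMP response element. The RefSeq promoter table of assembly GRCr8 gives 250 bases before to 50 bases after each gene's start, and 129 of the 157 higher and 96 of the 117 lower genes had an entry. Searched on both strands, the palindrome TGACGTCA was present in 15 of the 129 (11.6%) and in 1 of the 96, that of Zfp426 (1.04%). It was present in 263 of 7392 promoters of compared genes (3.56%) and in 525 of all 27457 in the table (1.91%). In the higher genes of the known lists it was present in 3 of 20. The shorter TGACG, which lies within the palindrome, was present in 47.3% of the higher genes outside the lists, 16.7% of the lower genes and 34.9% of the compared genes. CACGTG was present in 13.2%, 6.25% and 10.3% in the same order, and TATAAA in 12.4%, 4.17% and 5.97%. The GC content was alike, at 61.1% for the higher genes outside the lists, 61.5% for the lower genes and 61.6% for the compared genes. These shares are descriptions of the letters in the window and carry no test.

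The 15 higher genes with the palindrome were Slc25a25, Plk2, Giot1, Lrrtm2, Ell2, Ppp1r15a, Paqr3, Arl5b, Rcan1, Skil, Epha2, Polr1h, Appbp2, Cartpt and Ctu2. A second probe set of Appbp2 differed by -0.15, against 1.26 for the one used. Slc25a25, Plk2 and Lrrtm2, with wide differences, are printed first, 5′ to 3′ on the gene's strand, with TGACG or its complement in capitals wherever it occurs. In Slc25a25 (chr3:36116532-36116831, minus strand) the palindrome began at position -158 from the gene's start, in Plk2 (chr2:43702286-43702585, plus strand) at -66, and in Lrrtm2 (chr18:27096918-27097217, minus strand) at -74, with a single CGTCA at -84. Rxfp3 (chr2:61731757-61732056, minus strand) and Ypel4 (chr3:90222612-90222911, plus strand) follow as examples with the short form only, at -173 and -100. Not every high gene had a site, since Diras2 and Sv2c, also among the highest, had neither form in the window. Ypel5, one of the lowest genes, had TGACG at -43. These 3 promoters are not printed. Tmem215 (chr5:60408337-60408636, plus strand), one of the lowest genes, is shown for contrast and has CACGTG in capitals, at -89.
Slc25a25: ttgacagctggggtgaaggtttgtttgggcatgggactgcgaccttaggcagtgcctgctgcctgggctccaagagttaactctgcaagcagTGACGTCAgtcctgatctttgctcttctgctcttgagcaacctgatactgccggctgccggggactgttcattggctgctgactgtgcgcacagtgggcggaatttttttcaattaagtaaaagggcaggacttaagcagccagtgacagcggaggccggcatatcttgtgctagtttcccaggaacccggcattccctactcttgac
Plk2: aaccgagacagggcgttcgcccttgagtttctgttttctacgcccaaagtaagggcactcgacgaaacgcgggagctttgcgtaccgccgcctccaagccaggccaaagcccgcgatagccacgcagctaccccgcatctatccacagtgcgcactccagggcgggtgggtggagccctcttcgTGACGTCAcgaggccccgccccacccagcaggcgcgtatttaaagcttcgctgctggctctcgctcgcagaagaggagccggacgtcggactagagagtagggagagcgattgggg
Lrrtm2: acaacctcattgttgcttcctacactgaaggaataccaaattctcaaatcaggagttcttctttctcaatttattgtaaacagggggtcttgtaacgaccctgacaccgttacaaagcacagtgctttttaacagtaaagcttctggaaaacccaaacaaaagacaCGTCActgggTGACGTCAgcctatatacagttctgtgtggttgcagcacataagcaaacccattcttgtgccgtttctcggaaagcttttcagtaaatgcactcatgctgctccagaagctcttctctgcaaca
Rxfp3: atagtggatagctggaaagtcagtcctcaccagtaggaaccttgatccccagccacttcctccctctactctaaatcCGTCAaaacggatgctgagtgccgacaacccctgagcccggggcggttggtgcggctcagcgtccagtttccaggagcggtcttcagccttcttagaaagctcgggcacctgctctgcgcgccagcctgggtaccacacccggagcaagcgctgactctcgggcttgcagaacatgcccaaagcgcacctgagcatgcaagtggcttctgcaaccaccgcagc
Ypel4: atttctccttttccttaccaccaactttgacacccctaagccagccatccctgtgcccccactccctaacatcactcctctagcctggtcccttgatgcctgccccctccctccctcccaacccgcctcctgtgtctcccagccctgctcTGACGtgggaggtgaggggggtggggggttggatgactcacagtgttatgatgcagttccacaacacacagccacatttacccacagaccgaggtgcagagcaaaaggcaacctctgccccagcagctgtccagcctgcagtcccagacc
Tmem215: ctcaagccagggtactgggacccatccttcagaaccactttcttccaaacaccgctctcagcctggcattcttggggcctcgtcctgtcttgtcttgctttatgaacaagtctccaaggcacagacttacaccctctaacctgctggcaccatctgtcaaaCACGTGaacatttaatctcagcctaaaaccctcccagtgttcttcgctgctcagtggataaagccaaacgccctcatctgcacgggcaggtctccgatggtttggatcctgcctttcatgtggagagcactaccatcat

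Some small families split between higher and lower members. These families were picked after the values were seen, so their counts describe them and support nothing. The YPEL genes encode small zinc-binding proteins. Ypel4 had 9.49 with forskolin and 6.44 with vehicle (8.26-fold higher), whereas Ypel2 had 6.24 with forskolin and 7.49 with vehicle (2.38-fold lower) and Ypel5 had 5.59 with forskolin and 7.001 with vehicle (2.65-fold lower). Ypel3 lay the same way as the lower pair, at 6.19 with forskolin and 6.72 with vehicle. All 4 compared members differed by more than 0.5 log2 units, 1 upwards and 3 downwards.

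The polo-like kinases lay on both sides. Plk2 and Plk3 are stress- and calcium-responsive kinases, and Plk2 had 8.47 with forskolin against 6.09 with vehicle (5.21-fold higher) and Plk3 had 8.36 against 6.58 (3.44-fold higher). Plk1, the mitotic kinase, had 8.25 with forskolin and 9.23 with vehicle, just inside 2-fold. Plk4, which controls centriole duplication, had 6.74 with forskolin and 7.23 with vehicle, and Plk5 had 4.98 with forskolin and 5.50 with vehicle. The wider list of p53 and Gadd45-Plk stress genes was chosen with earlier results of these data known, so its counts only describe it. It had 29 compared members, with a median difference of 0.08. Of the 29, 5 were at least 2-fold higher and 0 lower, against 1.95% and 1.25% of all compared genes. Members of the CREB and immediate-early lists make up 4 of the 29. Outside the CREB list these included Ddit4, an inhibitor of mTORC1 (6.92 with forskolin, 5.03 with vehicle), and Sertad2, a transcriptional co-regulator (6.54 with forskolin, 5.37 with vehicle). Sesn1, a sestrin that also restrains mTORC1, was 0.94 higher.

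The BTG and TOB proteins hold back proliferation and bind the CCR4-NOT deadenylase. Btg1 had 11.68 with forskolin and 9.90 with vehicle (3.42-fold higher), and Tob1 had 9.44 with forskolin and 8.35 with vehicle (2.13-fold higher). Btg2, a member of the known lists, had 9.15 with forskolin and 7.81 with vehicle, and Btg3 had 9.86 with forskolin and 9.25 with vehicle. Tob2 differed by 0.14. In the whole mRNA decay list, 3 of 54 compared members were at least 2-fold higher, all 3 from this family, against 1.95% of all compared genes, 0 were lower and the median was -0.04. The CCR4-NOT subunit gene Cnot3 was on the other side, at 6.44 with forskolin and 7.32 with vehicle. Its difference was -0.29 against the 16 h vehicle array.

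The RCAN genes encode inhibitors of the phosphatase calcineurin. Rcan1 had 9.20 with forskolin and 7.58 with vehicle (3.06-fold higher), Rcan2 had 8.71 with forskolin and 7.59 with vehicle (2.17-fold higher), and Rcan3 had 6.10 with forskolin and 6.05 with vehicle. Some calcium-dependent kinases were among the higher genes too. Of 8 compared genes whose symbols start with Camk and a digit, a stem singled out after the values were seen, 2 were at least 2-fold higher and 0 lower. Over all compared genes, 1.95% were higher and 1.25% lower by as much. Of the 8, 4 lay above 0 and 4 below, with a median of 0.16. Camk2d had 6.41 with forskolin and 4.80 with vehicle (3.04-fold higher), Camk4 had 8.08 with forskolin and 6.94 with vehicle (2.20-fold higher), and the neuronal calcium sensor gene Ncald had 9.36 with forskolin and 8.01 with vehicle (2.53-fold higher).

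Several other families held 1 or 2 members past 2-fold beside smaller differences in both directions. Pak3, a Rac and Cdc42 effector kinase, was 3.33-fold higher (9.82 with forskolin, 8.09 with vehicle), while Pak1 differed by 0.66, Pak2 by -0.11, Pak4 by -0.38 and Pak6 by -0.17. Cpeb4, which controls cytoplasmic polyadenylation, was 3.13-fold higher (9.61 with forskolin, 7.97 with vehicle), while Cpeb2 differed by 0.50 and Cpeb1 by -0.23. Arl5b and Arl4a, GTPases of Golgi and plasma membrane traffic, were 3.18-fold and 2.40-fold higher, Arl4d was just under 2-fold higher at 0.997, and Arl5a differed by 0.09 and Arl4c by -0.28. Pkp2, a desmosomal plaque protein, was 3.89-fold higher (7.73 with forskolin, 5.77 with vehicle), while Pkp4 differed by -0.31. On the lower side, Amigo2, a leucine-rich repeat adhesion protein, had 6.54 with forskolin and 7.93 with vehicle, and Amigo1 had 4.88 with forskolin and 5.62 with vehicle. Among the SUMO proteases, Senp7 had 4.72 with forskolin and 6.33 with vehicle, while Senp1 and Senp3 differed by -0.50 and -0.32, Senp6 by -0.07, and Senp2 and Senp5 by 0.27 and 0.32.

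**Figure D3:**
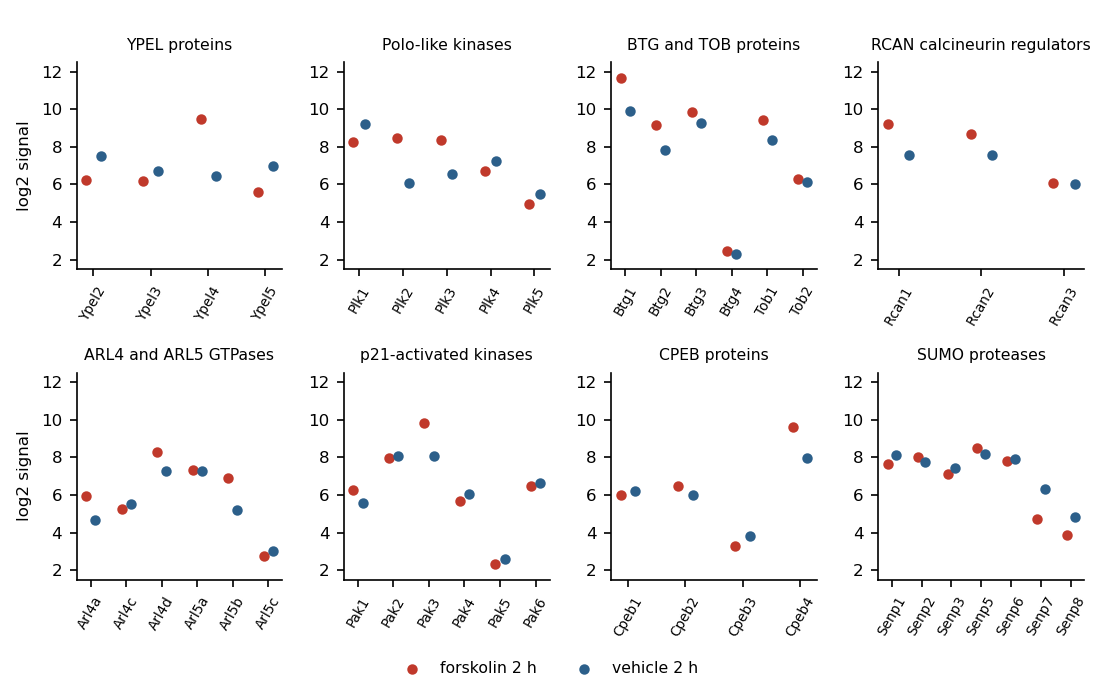
Log2 signals on the 2 h arrays of every measured member of 8 gene families, with forskolin in red to the left and vehicle in blue to the right of each gene's position. The widest gaps are those of single members such as Ypel4, Plk2 and Pak3, and the YPEL genes are split between higher and lower.

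Some enzymes of glycan and sphingolipid synthesis were past 2-fold in either direction, and they were picked after the values were seen, from no fixed list. B3galt2, a beta-1,3-galactosyltransferase, had 9.30 with forskolin and 7.32 with vehicle (3.95-fold higher). B3gnt2, which extends poly-N-acetyllactosamine chains, had 7.77 with forskolin and 6.26 with vehicle (2.85-fold higher). St8sia1, the GD3 ganglioside synthase, had 7.97 with forskolin and 6.36 with vehicle (3.05-fold higher). Sgms2, a sphingomyelin synthase, had 6.81 with forskolin and 5.21 with vehicle (3.02-fold higher), with a difference of 0.91 against the 16 h vehicle array. Gcnt2, which makes the branched I antigen, had 5.24 with forskolin and 6.67 with vehicle, and Hs3st1, a heparan sulphate sulphotransferase, had 5.10 with forskolin and 6.22 with vehicle, a difference of -0.52 against the 16 h vehicle array. St8sia3 differed by -0.14, and of 10 compared Galnt genes, which start mucin-type glycans, 0 were past 2-fold, with a median of -0.04.

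Solute carriers gave 7 of 170 compared genes at least 2-fold higher (4.12%, against 1.95% of all compared genes) and 0 lower (against 1.25%). At 1.5-fold 12 were higher and 15 lower, and the median difference of the stem, singled out after the values were seen, was -0.11. Beside Slc25a25 these were Slc1a4 and Slc7a5, transporters of neutral amino acids, Slc7a11, the cystine-glutamate exchanger, Slc26a2, a sulphate transporter, Slc4a7, a sodium bicarbonate cotransporter, and Slc66a2. Slc1a4 had 7.998 with forskolin and 5.87 with vehicle (4.37-fold higher), and Slc7a5 had 9.65 with forskolin and 8.30 with vehicle (2.55-fold higher). Slc26a2 had 10.27 with forskolin and 8.89 with vehicle (2.61-fold higher), and Slc4a7 had 6.55 with forskolin and 5.34 with vehicle (2.31-fold higher). Slc7a11 had 5.80 with forskolin and 4.19 with vehicle, near background, and a difference of 0.97 against the 16 h vehicle array. Slc66a2 was 1.18 higher by the probe set used and -0.37 by its other one.

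In the list of mitochondrial biogenesis and carrier genes, 2 of 40 compared members were at least 2-fold higher, Slc25a25 and the CREB target Ppargc1a (7.75 with forskolin, 5.08 with vehicle), and 0 were lower, with a median of -0.09. Over all compared genes, 1.95% were higher and 1.25% lower. Mcu, the pore of the mitochondrial calcium uniporter, was 0.98 higher, and the glutamate carrier gene Slc25a22 0.91 higher. Slc25a46, which acts in the outer membrane, was 0.82 lower in log2 units. Of 43 genes of fatty acid oxidation and pyruvate dehydrogenase control, 0 were at least 2-fold higher and 1 was lower. That one was Cpt2, the inner membrane carnitine palmitoyltransferase, at 6.69 with forskolin and 7.91 with vehicle. Ldhb, a lactate dehydrogenase subunit, had 8.46 with forskolin and 6.81 with vehicle (3.13-fold higher), and Pdxk, which makes pyridoxal phosphate, had 9.36 with forskolin and 7.78 with vehicle.

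Genes of transcription elongation and RNA processing differed singly rather than as lists. Ell2, an elongation factor of RNA polymerase II, had 8.82 with forskolin and 6.85 with vehicle, 3.90-fold higher. Aff4, the scaffold of the super elongation complex that holds ELL2, was 0.94 higher (8.85 with forskolin, 7.91 with vehicle), and Hexim1, the inhibitor of the elongation kinase P-TEFb, was 0.72 higher. Ell itself was at 6.62 with forskolin and 6.04 with vehicle. Over all compared genes, 1.95% were at least 2-fold higher and 1.25% lower. In the list of core transcription and Mediator genes, 1 of 66 compared members was at least 2-fold higher and 1 lower, with a median of -0.02. The lower one was Gtf2e1, a subunit of the general factor TFIIE (5.26 with forskolin, 6.30 with vehicle). Among 47 splicing regulators, 1 was at least 2-fold higher and 0 lower, with a median of 0.01. The higher one was Dyrk3, a kinase that dissolves nuclear speckles and stress granules, at 6.83 with forskolin and 4.99 with vehicle (3.58-fold higher). Tra2a, Srsf2 and Srsf7, serine-arginine-rich splicing factors, were 0.96, 0.73 and 0.62 higher, while the kinase gene Clk2 was at 6.62 with forskolin and 7.45 with vehicle. Outside these lists, Lyar, a nucleolar zinc finger protein, had 10.20 with forskolin and 8.36 with vehicle (3.57-fold higher), and Tia1, an RNA-binding protein of stress granules, had 5.39 with forskolin and 6.67 with vehicle (2.43-fold lower).

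Of 63 compared F-box and BTB-Kelch adaptors, which choose substrates for cullin ubiquitin ligases, 0 were at least 2-fold higher and 4 lower, against 1.25% of all compared genes lower. At 1.5-fold, 12 of the 63 were lower, against 8.34% of all compared genes, and 2 were higher, against 4.44%. The 4 were Klhl23, Kbtbd3, Klhl8 and Kbtbd4. Kbtbd3 had 3.84 with forskolin, near background, and 5.72 with vehicle. Klhl8 had 5.98 with forskolin and 7.34 with vehicle, and Kbtbd4 had 6.02 with forskolin and 7.03 with vehicle. Keap1, the adaptor that restrains NRF2, was close behind at 5.78 with forskolin and 6.71 with vehicle. The list's median was -0.17, and -0.06 after cyclic loess. Against the 16 h vehicle array, 5 of the 63 were at least 2-fold lower and 2 higher. There the differences were -1.79 for Klhl23, -1.55 for Klhl8, -1.19 for Kbtbd3 and -0.70 for Kbtbd4.

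Of 47 genes listed with the ubiquitin-specific proteases, 3 were at least 2-fold higher and 1 lower, against 1.95% and 1.25% of all compared genes, with a median of -0.05. Otud4 and Usp38 are deubiquitinases, and Otud4 had 8.96 with forskolin and 7.63 with vehicle (2.50-fold higher) and Usp38 had 7.04 with forskolin and 5.92 with vehicle (2.17-fold higher). The third, Usp6nl, is named after a protease but encodes a GTPase-activating protein for Rab5, and had 7.55 with forskolin and 6.21 with vehicle. Usp21 had 4.90 with forskolin and 5.92 with vehicle, and its difference was -0.57 against the 16 h vehicle array. Among ubiquitin ligase and conjugating enzymes outside the lists, Siah2 was 2.01-fold higher and Ube2z 2.61-fold higher.

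Enzymes that make and break phosphoinositides, the membrane lipids that recruit signalling and traffic proteins, were mostly a little lower. Of 43 compared, 0 were at least 2-fold different in either direction, 39 were below 0, and the median was -0.30, against -0.10 over all compared genes. At 1.5-fold, 10 were lower and 1 higher. Pi4kb, a phosphatidylinositol 4-kinase of the Golgi, had 5.58 with forskolin and 6.42 with vehicle. Mtmr1 and Mtmr7, myotubularin phosphatases, had 6.90 and 7.46 with forskolin against 7.66 and 8.21 with vehicle. Pik3c3, the class III kinase of autophagy and endosomes, had 5.64 with forskolin and 6.38 with vehicle. The vehicle arrays differed in these genes as well. The median between them, 16 h minus 2 h, was -0.18, and forskolin at 2 h against the 16 h vehicle array gave -0.15. The part of the 2 h vehicle array in this shift was not tested.

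Some larger groups were mostly below 0 in the same way, with medians nearer to 0 against the 16 h vehicle array. Of 64 histone modifying enzymes, 50 were below 0, the median was -0.19, 0 were at least 2-fold higher and 1 was lower. That was Ezh1, a polycomb methyltransferase, which was 2.29-fold lower, a difference of -1.19. Against the 16 h vehicle array the median of this list was -0.01. The demethylase genes Jmjd1c and Kdm2b had 6.21 and 6.58 with forskolin against 7.05 and 7.41 with vehicle. Of 136 compared genes whose symbols start with Zfp, the zinc finger proteins, 97 were below 0, with a median of -0.30. This stem was singled out after the values were seen. Of the 136, 8 were at least 2-fold lower and 3 higher, against 1.25% and 1.95% of all compared genes. The median was -0.16 after cyclic loess and -0.09 against the 16 h vehicle array, where 1 of the 136 was at least 2-fold lower.

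Of 13 compared SOX and FOX transcription factors, 12 were below 0, 2 were at least 2-fold lower and 0 higher, and the median was -0.37. Against the 16 h vehicle array, 8 of the 13 were below 0, 0 were at least 2-fold lower and 1 was higher, and the median was -0.18. Foxo1, the insulin-regulated forkhead factor, had 5.10 with forskolin and 6.43 with vehicle, and Foxj2 had 4.98 with forskolin and 6.07 with vehicle. Against that array these differences were -0.72 and -0.75. Sox4 had 6.94 with forskolin and 7.61 with vehicle. Foxj3 was the 1 member above 0 at 2 h, with 8.13 with forskolin and 7.53 with vehicle. Against the 16 h vehicle array Foxj3 was 1.06 higher, the 1 member past 2-fold there. In this list 32 of 45 measured members lay below the filter on both-array means, and over all 45 the median was -0.01. Of 10 compared Hippo and YAP genes, 9 were below 0, and 6 against the 16 h vehicle array. Vgll4, which competes with YAP for TEAD factors, was 2.47-fold lower, at 7.13 with forskolin and 8.44 with vehicle.

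Genes were also grouped by the stem of their symbols. Of 153 stems with at least 8 compared genes, 119 had a median below 0, and 83 one below that of all compared genes, -0.10. The lowest medians were those of Pik (-0.41, 8 genes), Mtmr (-0.40, 10 genes), Cep (-0.39, 26 genes), Fbxl (-0.36, 11 genes) and Ankrd (-0.35, 16 genes). Between the vehicle arrays, 16 h minus 2 h, the medians of Pik, Mtmr, Cep and Ankrd were -0.19, -0.20, -0.18 and -0.27, and that of Fbxl was 0. Of the 26 Cep genes, which encode centrosomal proteins, 24 were below 0, with Cep97 at 4.48 with forskolin, near background, and 5.65 with vehicle, and Cep72 at 5.17 with forskolin and 6.01 with vehicle. The highest medians were those of Nr (0.33, 11 genes), which holds the NR4A receptors of the known lists, Sema (0.22, 9 genes), Arhgef (0.22, 8 genes), Syt (0.19, 8 genes) and Srsf (0.17, 10 genes). Most of these stems were split, with 7 Nr, 5 Sema, 4 Arhgef and 5 Syt genes above 0. Of the 10 Srsf genes, 8 were above 0. Syt4, an unusual synaptotagmin of secretory vesicles, led its stem, with 10.27 with forskolin and 8.77 with vehicle (2.83-fold higher), while Syt17 and Syt9 were at 6.21 and 5.09 with forskolin against 6.90 and 5.60 with vehicle.

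Of 22 Ras and Rap exchange factors and GAPs, 0 were at least 2-fold higher and 1 lower, with a median of -0.30, and of -0.06 against the 16 h vehicle array. The lower one was Rasgrp3, a diacylglycerol-responsive exchange factor, with 4.69 with forskolin and 5.77 with vehicle. Sos1, the exchange factor that couples receptor tyrosine kinases to Ras, was 0.57 higher. Rem2, a GTPase that inhibits voltage-gated calcium channels, lay at the threshold, with 7.43 with forskolin and 6.43 with vehicle.

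Ligands and receptors of growth factor signalling were mostly below the filter, with 7 of 42 measured EGF and FGF family genes compared. Of the 7, 1 was at least 2-fold higher and 0 lower, with a median of 0.27. Over all compared genes, 1.95% were higher and 1.25% lower by as much. Hbegf, a membrane-anchored ligand of the EGF receptor, had 9.47 with forskolin and 7.47 with vehicle, 3.98-fold higher. Errfi1, a feedback inhibitor of the same receptor, had 9.35 with forskolin and 7.62 with vehicle, 3.32-fold higher. In cytokine signalling, 1 of 30 compared genes was at least 2-fold higher and 0 lower, with a median of -0.08. Ifngr1, the ligand-binding chain of the interferon-gamma receptor, had 8.83 with forskolin and 7.27 with vehicle (2.96-fold higher). Il1r1, the interleukin-1 receptor, had 8.36 with forskolin and 7.45 with vehicle, while the SUMO ligase gene Pias3 and the feedback inhibitor gene Cish had 5.71 and 5.29 with forskolin against 6.61 and 6.15 with vehicle. Of 15 neurotrophic and vascular growth factor genes, 0 were at least 2-fold higher and 1 lower, Cntf, ciliary neurotrophic factor, with 6.65 with forskolin and 7.75 with vehicle. Kit, the stem cell factor receptor, was 0.92 higher and Ngfr, the low-affinity neurotrophin receptor, 0.91 higher.

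Lists of cell-surface adhesion and guidance genes held 1 or 2 wide differences each. The shares over all compared genes were 1.95% at least 2-fold higher and 1.25% lower. Lrrtm2, a postsynaptic leucine-rich repeat protein that binds neurexins, had 6.80 with forskolin and 4.65 with vehicle (4.43-fold higher) in a list of 39 synaptic adhesion and scaffold genes with 1 higher and 1 lower. The lower one was Lrrn2, at 5.67 with forskolin and 6.71 with vehicle. Pcdh9, a protocadherin, had 6.84 with forskolin and 4.72 with vehicle (4.37-fold higher), the 1 higher gene among 20 cadherins and protocadherins, and its second probe set differed by 1.69. Itga3, a laminin-binding integrin chain, had 9.19 with forskolin and 7.71 with vehicle (2.80-fold higher), the 1 higher gene among 15 integrin and matrix genes, whose median was 0.10. Sema3a and Sema6a, semaphorins that repel growing axons, had 6.24 and 5.83 with forskolin against 4.24 and 3.93 with vehicle. Both vehicle signals were near background, and these were the 2 higher genes of 18 in axon guidance. Ctnnb1, beta-catenin, which serves both adhesion and Wnt signalling, had 9.37 with forskolin and 8.29 with vehicle (2.12-fold higher), the 1 higher gene of 15 in the Wnt list.

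**Figure D4:**
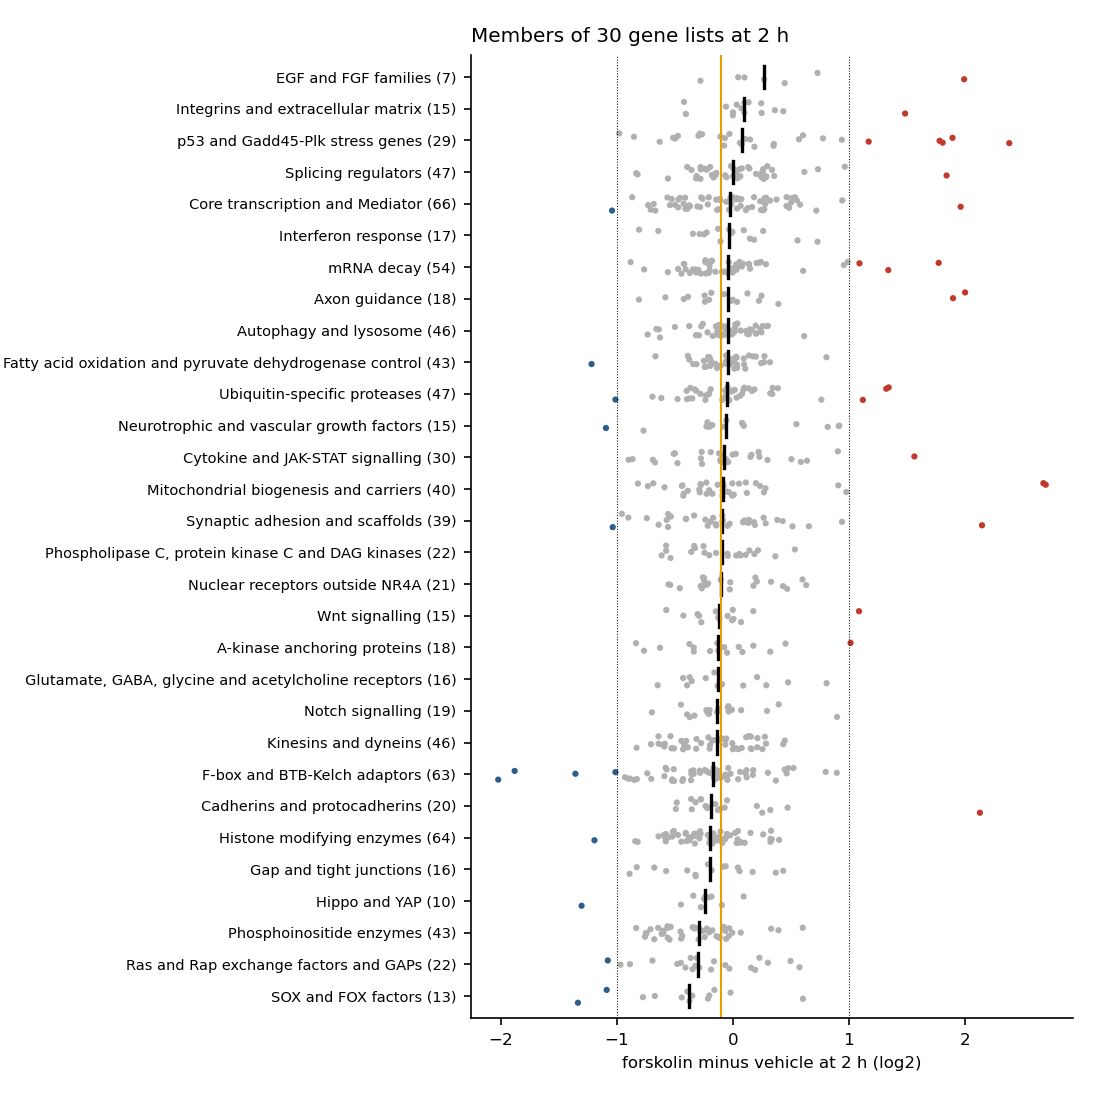
Forskolin minus vehicle log2 difference at 2 h for the compared members of 30 gene lists, sorted by median, with the number of compared members in brackets. Each point is a gene (red at least 2-fold higher, blue at least 2-fold lower), black bars are list medians and the orange line is the median of all 9323 compared genes, -0.10; medians run between -0.37 and 0.27, and single genes reach far beyond them.

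Among the A-kinase anchoring proteins, which place protein kinase A in the cell, 1 of 18 compared was at least 2-fold higher and 0 lower, with a median of -0.12. Over all compared genes, 1.95% were higher and 1.25% lower. Akap17b, which the list does not hold, had 3.81 with forskolin, near background, and 5.35 with vehicle, and its difference was -0.85 against the 16 h vehicle array. Akap12, a plasma membrane scaffold, had 7.54 with forskolin and 6.53 with vehicle, while Akap1, of the outer mitochondrial membrane, had 5.79 with forskolin and 6.62 with vehicle. No member was at least 2-fold different in 9 lists. The first 5 of these were Notch signalling (19 compared), nuclear receptors outside NR4A (21, with Nr1d1 not listed), phospholipase C, protein kinase C and DAG kinases (22), phosphoinositide enzymes (43), and gap and tight junctions (16). The other 4 were glutamate, GABA, glycine and acetylcholine receptors (16), kinesins and dyneins (46), interferon response (17), and autophagy and lysosome (46). In these lists the single differences nearest to the threshold were those of Jag1, a Notch ligand (0.90 higher, with a vehicle signal near background), and Cldn9, a claudin (6.05 with forskolin, 6.94 with vehicle). The mitotic kinesin genes Kif20b and Kif2c had 6.55 and 6.95 with forskolin against 7.38 and 7.65 with vehicle.

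Genes that lie next to each other on a chromosome differed together in a few places. Of 4483 adjacent pairs of compared genes in the order of assembly GRCr8, 9 had both members at least 2-fold different in the same direction, 8 higher and 1 lower. Taken singly, 1.95% of compared genes were higher and 1.25% lower by as much. Whether 9 pairs are more than unlinked genes would give was not tested. Mapkapk2, a kinase downstream of p38 that stabilises cytokine mRNAs, and its neighbour Dyrk3 were 1.39 and 1.84 higher. Polr1h, a subunit of RNA polymerase I, and Ppp1r11, a protein phosphatase 1 inhibitor, were 1.28 and 1.26 higher. Tgds and Gpr180 were 1.26 and 1.42 higher, and Slc1a4 and Sertad2 2.13 and 1.17 higher. Clp1, an RNA kinase of mRNA 3′ end formation, was 1.14 higher beside Ypel4. The 1 lower pair was Tia1 and C4h2orf42, at -1.28 and -1.33. The other 3 pairs were Camk4 and Stard4, Lto1 and Ccnd1, and Slc7a11 and Noct, and each pair was read by separate probe sets.

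The 16 h arrays show which of these differences were present at both times. Over all compared genes the median difference at 16 h was 0.02, so at least as many of them lay above 0 as below it. Counts on either side of 0 at 16 h are to be read against this. Of the 157 higher genes, 143 were also above 0 at 16 h and 45 were at least 2-fold higher there, where 1.95% of all compared genes were. Their median difference was 1.39 at 2 h and 0.66 at 16 h. Of the 117 lower genes, 92 were also below 0 at 16 h and 19 were at least 2-fold lower there, against 1.96% of all compared genes, and their median was -1.18 at 2 h and -0.35 at 16 h. The genes were chosen by their 2 h difference, so these medians are not an even comparison of the times. Rxfp3 was 3.61 higher at 2 h and 3.65 at 16 h, Sv2c 2.69 and 3.46, and Plat 2.22 and 3.76. Cd83 was 2.59 higher at 2 h and -0.05 at 16 h, Actn2 3.50 and 0.56, Hbegf 1.99 and 0.25, and Cpeb4 1.65 and 0.12. Among lower genes, Txnip was at -3.61 at 2 h and -4.12 at 16 h, Arrdc4 at -1.90 and -2.45, and Tmem215 at -1.92 and -1.86. F3 was at -2.13 and -0.63, Atf7ip at -1.76 and -0.21, and Ypel5 at -1.41 and -0.22.

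**Figure D5:**
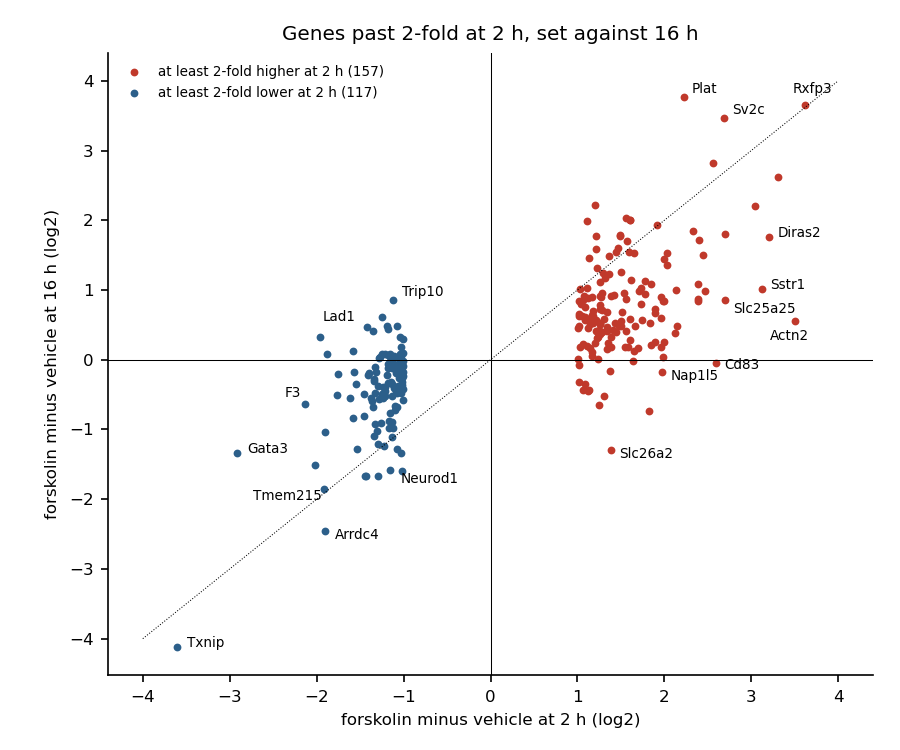
Forskolin minus vehicle log2 difference at 16 h (vertical) against that at 2 h (horizontal) for the 157 higher and 117 lower genes outside the known lists. The dotted line marks equal differences; Txnip, Rxfp3, Sv2c and Plat are far from 0 at both times, Cd83 lies close to 0 at 16 h (-0.05), and Actn2 is at 3.50 at 2 h and 0.56 at 16 h.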

How the data were processed

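RNA from 4 INS-1 cultures was measured on 4 Affymetrix rat gene arrays, 1 in each group. The deposited values are log2 signals per probe set, computed by the authors as gene-level RMA (background correction, quantile normalization and summary over probes), per the file headers, with Affymetrix Expression Console 1.1.1, per the submitters' processing notes. Which arrays were normalized together is not given in the sources used here. Array number limits the precision, since each group has 1.

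Of 29214 probe sets, 20411 carried 1 gene symbol and 8803 none. Symbols were updated through the RefSeq table of GRCr8: 14570 through an accession, 2834 through a symbol and 1127 through a synonym, while 1880 kept the deposited one. Where a gene had more than 1 probe set, as 1026 of 18645 did, the brightest on average was used. Compared genes had a mean over the 2 h arrays at or above its median; 24.1% of the negative controls would pass. A gene lowered by forskolin from near that level drops out, while one raised to it comes in. Genes were counted by size, at least 2-fold, with no test.

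Named genes are the 15 highest and 15 lowest differences with both signals above the upper quartile of the negative controls, the 5 highest and 5 lowest with 1 signal at or below it, up to 4 members of each of 33 lists at 1.5-fold or more, members of the 5 highest and 5 lowest stems, and neighbouring pairs. Further genes past 2-fold, the small families and the groups of glycan enzymes and solute carriers were chosen after their values were seen. All lists and members were chosen with earlier results of these data known. Results of 1 list and of some genes under these rules are left out here. Promoter letters were searched on both strands. Scripts used Python 3.11.15, pandas 2.3.3 and numpy 2.4.6, with limma 3.58.1 in R 4.3.3 for cyclic loess and quantile scaling, and the counting step was tested on simulated data. Other thresholds, filters, scalings and summaries of probe sets were tried as alternatives.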

Additional observations from a re-analysis of the deposited data

Results flagged for a closer look

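Some genes past 2-fold at 2 h lay on the other side of 0 at 16 h by more than 0.248, which is 1 SD of the vehicle 16 h minus vehicle 2 h values. With 1 array a group, none of these differences between 2 h and 16 h was tested. Slc26a2 stood furthest apart, 1.39 higher at 2 h and -1.29 at 16 h, with 7.31 with forskolin and 8.60 with vehicle on the 16 h arrays. RGD1560020_predicted was 1.82 higher at 2 h and -0.73 at 16 h, and Barhl1 was 1.25 higher and then -0.65. Mafa was 1.31 higher at 2 h and -0.52 at 16 h, Rcan2 1.12 and -0.45, Nfkb2 1.06 and -0.43, and Dffb 1.13 and -0.43. Mertk was 1.09 higher at 2 h and -0.35 at 16 h, Noct 1.02 and -0.31, and Btg2 1.34 and -0.30.

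Lower genes that were above 0 at 16 h were led by Trip10, at -1.12 at 2 h and 0.86 at 16 h, and Nr1d1, at -1.25 and 0.61. Cyb5d2 was at -1.19 at 2 h and 0.48 at 16 h, Zmym6 at -1.07 and 0.48, and Lad1 at -1.42 and 0.47. Zbtb7b was at -1.18 at 2 h and 0.44 at 16 h, Spart at -1.36 and 0.42, and Mief2 at -1.04 and 0.32. LOC257650 was at -1.96 at 2 h and 0.32 at 16 h, and Oxsm at -1.01 and 0.29.

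Probe sets without a deposited symbol take no part in the comparison. Of 1536 with a mean over the 2 h arrays above the same level, 25 were at least 2-fold higher with forskolin and 12 at least 2-fold lower, while 14 differed at least 2-fold between the vehicle arrays. Among the 9323 compared genes, 1.95% were higher and 1.25% lower with forskolin, and 6 differed at least 2-fold between the vehicle arrays.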

How the results depend on the processing

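No paired analysis was possible because each group has 1 array, and leaving out a replicate was not possible for the same reason. With a 1.5-fold threshold, 414 genes were higher and 778 lower, and with a 3-fold threshold 79 and 14. The lower count was 53 with a stricter filter on signal, which compares fewer genes, and 66 after cyclic loess, which takes out a median difference of -0.10; the higher count was 227 there. Higher genes were 60.9% of those past 2-fold as reported, 77.5% after cyclic loess, 71.3% after quantile scaling and 73.6% after centring on the median. Against the 16 h vehicle array, an alternative chosen after seeing the data, they were 73.4%, and 137 of the 157 higher and 51 of the 117 lower genes outside the known lists stayed past 2-fold. The other alternatives run left both counts within 1.5 times those reported, and no gene named and past 2-fold turned its direction. Of 4206 alternative values of named genes, 3971 moved by less than 0.248 and 235 by more, 180 of these against the 16 h vehicle array. Of 363 alternative list medians, 12 moved by more. Signals near background limit the folds of 22 higher and 27 lower genes.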

Other observations

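The probe sets of 3 further genes past 2-fold carry no deposited symbol and were named by accession, after their values were seen. Kdr, a VEGF receptor gene that belongs to the endothelial marker list, had 7.86 with forskolin and 4.13 with vehicle, near background, a difference of 3.73 at 2 h and 2.12 at 16 h. Fosl2, an AP-1 factor, had 8.92 with forskolin and 5.74 with vehicle. Cebpd, a C/EBP transcription factor, had 6.76 with forskolin and 5.13 with vehicle. The other 7 measured endothelial and fibroblast markers were not above background on both arrays.

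As a group put together after the values were seen, genes that restrain or promote cell death and division were found on both sides. Bcl2l11, the pro-apoptotic BIM gene, had 6.49 with forskolin and 5.08 with vehicle, 2.67-fold higher, and Bcl2l1, which encodes BCL-XL, had 5.05 with forskolin and 6.15 with vehicle, 2.14-fold lower, with a second probe set at -0.68. Cflar, an inhibitor of caspase-8, was 2.02-fold higher. Cdkn1b, the p27 inhibitor of cyclin-dependent kinases, had 9.33 with forskolin and 8.05 with vehicle, 2.43-fold higher. Ccne1, cyclin E1, had 7.07 with forskolin and 8.15 with vehicle, and Lin9, a subunit of the DREAM complex, had 7.63 with forskolin and 8.66 with vehicle. Espl1, the separase that splits sister chromatids, had 5.01 with forskolin and 6.15 with vehicle. Against the 16 h vehicle array, Ccne1 was at -0.84 and Espl1 at -0.82.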
